A study of Mus musculus with 4 samples.

Results

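The 10 genes described here encode the signalling adaptors TRAF1 to TRAF6, the TRAF-binding protein TANK, and the ubiquitin-binding regulators TNIP1, TNIP2 and TNIP3. They were chosen by name: each is the row of the deposited count table whose Ensembl identifier carries that symbol, 10 rows of 49315. All 10 had enough counts to be tested, as had 14656 genes in all. RNA was sequenced from 4 libraries of bone marrow-derived macrophages, which are grown from marrow cells in medium that supports macrophages, here supplemented with L-cell supernatant. Every library came from Lyz2Cre+ mice, a line used to express Cre recombinase in myeloid cells. On day 7 of culture the cells of the 2 M1 libraries received LPS at 100 ng/ml with interferon gamma at 50 ng/ml, and those of the 2 M2 libraries received IL-4 at 10 ng/ml with IL-13 at 10 ng/ml. Polarization took 24 hours in serum-free medium. Neither the age of the mice nor the pooling of animals is given in the sources used here. The study also used the EGF receptor inhibitor erlotinib, and whether it was present in these cultures is not stated in the labels. Unpolarized cells were not analysed here, so each difference is one between M2 and M1 and not a change from rest.

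TRAF proteins carry signals from receptors that have no enzyme activity of their own. Receptors of the TNF family and the Toll-like and interleukin-1 receptors gather TRAFs at their cytoplasmic tails, and most TRAFs attach ubiquitin chains that recruit the kinases acting on NF-kappaB and on interferon regulatory factors. TANK joins TRAFs to the kinases TBK1 and IKK epsilon. TNIP proteins, also called ABINs, bind ubiquitin chains and are known as restraints on NF-kappaB signalling, in part as partners of the deubiquitinase A20. In macrophages this machinery serves the response to bacterial products and to CD40 and TNF.

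Library totals ran from 26806370 to 39506242 gene counts. Levels are given as CPM, the count scaled to a common library size after TMM scaling, a method that centres most genes between libraries. Replicates correlated across genes with r = 0.998 in M1 and 0.999 in M2, against 0.844 to 0.847 between groups; genes are not independent replicates. Nothing in the labels says that replicates were separate cultures or animals, so p-values measure the spread between these libraries only, which may be technical. All 7 macrophage markers examined (Adgre1, Csf1r, Cd68, Itgam, Lyz2, Fcgr1 and Mertk) had counts in every library, with a summed level of 4330 to 5170 CPM, but single markers differed between the groups in both directions. Csf1r (253.6 and 274.3 CPM in M1, 1673 and 1607 in M2) and Cd68 (129.8 and 107.3, 1225 and 1261) were higher in M2. The other 5 were lower there, among them Fcgr1 (684 and 472 CPM in M1, 21.4 and 21.6 in M2) and Lyz2, the lowest of the 7 (25.3 and 27.3, 6.51 and 6.88). Summed markers of B cells, T cells, NK cells, mast cells or basophils, and erythroid cells stayed under 4 CPM each, with Ms4a2 at 0 throughout. The 6 neutrophil markers summed to 7.09 to 10.0 CPM, but single ones went both ways. S100a8 was lower in M2 (7.894 and 8.785 CPM in M1, 1.979 and 3.278 in M2). S100a9 was higher there (0.7207 and 0.4474, 3.735 and 4.711), as were Mpo and Elane at lower levels. The 4 dendritic cell markers summed to 32.8 and 33.6 CPM in M1, nearly all of it Xcr1, and 2.52 and 2.11 in M2, where Xcr1 was near 0. Of the others, Zbtb46 was higher in M2 (0.858 and 0.9355 CPM in M1, 2.203 and 1.411 in M2). Flt3 was lower there, and Siglech overlapped between the groups. The 4 fibroblast markers (Col1a1, Col1a2, Col3a1 and Pdgfra, none at 0) summed to 100 and 96.7 CPM in M1 and to 1130 and 1150 in M2.

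Most of the family was less abundant in M2 than in M1. By edgeR's quasi-likelihood test at an adjusted p under 0.05, 7 of the 10 genes fell in M2 (Traf1, Traf2, Traf3, Traf6, Tank, Tnip1 and Tnip3), 2 rose (Traf4 and Traf5), and Tnip2 was not called. Much of the transcriptome differed between the groups. Of all tested genes 77.2% were called, 37.5% lower and 39.7% higher in M2, so being called is not particular to these genes. The median difference over the 10 genes was -1.70 log2 units, against 0.04 over all tested genes. Tested under TMM scaling against a log2 change of at least 1, 8 of the 10 passed, and 33.0% of all tested genes did. In bulk RNA, fewer cells that express a gene and less of its RNA per cell cannot be told apart.

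**Figure D1:**
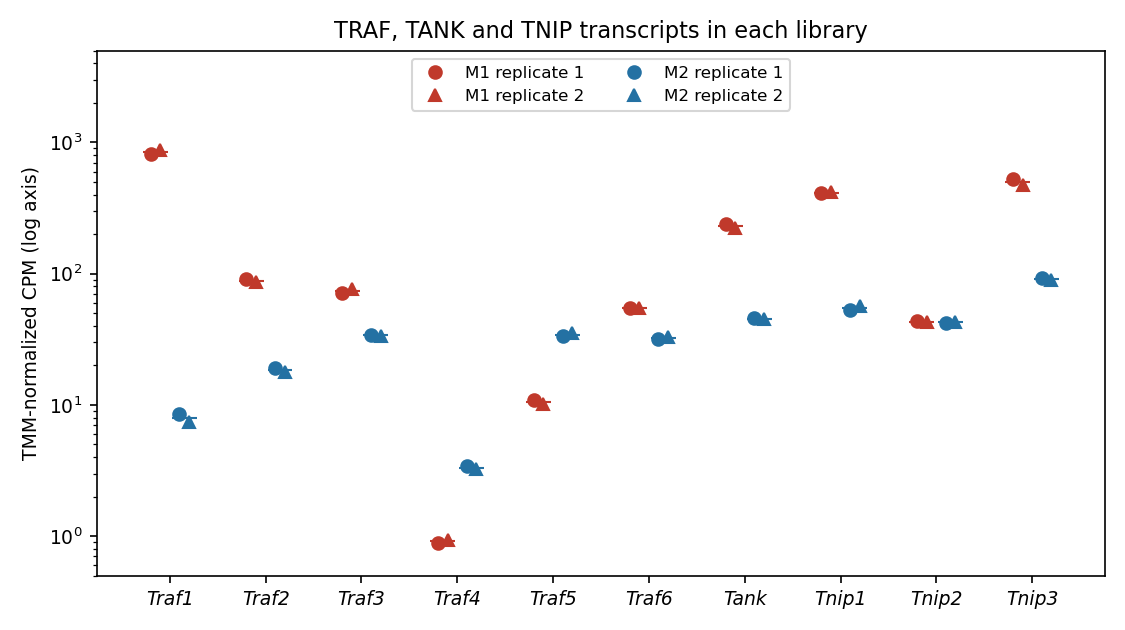
TMM-normalized CPM (log axis) of each gene in the 4 libraries; circles are replicate 1, triangles replicate 2, red M1, blue M2, and short lines the group means. M2 lies above M1 for Traf4 and Traf5, the groups lie on one another for Tnip2, and M2 lies below M1 for the other genes.

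The promoters of all 10 genes were examined for binding motifs. The windows were the RefSeq stretches of 300 bases on GRCm38.p6 from 250 bases before a start site to 50 after it. All 10 genes had a window, and Tank had 4, which overlap in pairs. Both strands were searched for the kappaB consensus bound by NF-kappaB and for the motifs TTCNNNGAA (GAS, bound by STAT dimers) and GAAANNGAA (the core of the ISRE, bound by STAT and IRF complexes). The kappaB consensus was present for 4 of the 10 genes (Traf3, Tank, Tnip1 and Tnip3), all among the 7 that fell in M2. It was in 8.5% of all 32851 windows, or at least 1 window of 9.6% of genes. The 3 overlapping matches in Tnip1 make up 1 palindromic stretch. The RefSeq start used for Tnip3 lies inside the GENCODE span of the gene. In Tank the match GGAAGTCCCC lies in the 2 windows of the first start sites and a different one, GGGGCTTTCC, in the 2 windows farther along the gene. The stretches below are the 100 bases before the start site, for Tank the first of its 4, with the matches in capitals, and Traf1, the gene with the largest fall, is set beside them.
Tnip1, chr11:54962941-54963040, minus strand: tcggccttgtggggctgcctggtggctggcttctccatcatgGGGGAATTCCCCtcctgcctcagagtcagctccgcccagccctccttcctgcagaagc
Tnip3, chr6:65590298-65590397, plus strand: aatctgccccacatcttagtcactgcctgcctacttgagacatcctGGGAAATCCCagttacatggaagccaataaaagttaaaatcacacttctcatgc
Tank, chr2:61578457-61578556, plus strand: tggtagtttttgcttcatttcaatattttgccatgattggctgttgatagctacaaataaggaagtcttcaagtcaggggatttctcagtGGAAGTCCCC
Traf3, chr12:111166270-111166369, plus strand: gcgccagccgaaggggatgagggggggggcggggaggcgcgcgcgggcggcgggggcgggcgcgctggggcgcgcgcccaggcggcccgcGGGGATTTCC
Traf1, chr2:34961773-34961872, minus strand: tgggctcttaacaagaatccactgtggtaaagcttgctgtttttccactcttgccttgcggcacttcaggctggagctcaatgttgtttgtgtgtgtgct
None of the 3 motifs was found in the windows of Traf1, Traf2 and Traf6, which says only that these letters are not in those windows.

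The ISRE core was found in the windows of 2 of the 10 genes, Traf4 and Traf5, the 2 that rose in M2, and in 8.6% of all windows, or at least 1 window of 9.8% of genes. The 9 matching bases are the same in both, shown in capitals within 60 bases.
Traf4, chr11:78165676-78165735, minus strand: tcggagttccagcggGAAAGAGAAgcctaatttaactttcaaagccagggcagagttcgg
Traf5, chr1:192092790-192092849, minus strand: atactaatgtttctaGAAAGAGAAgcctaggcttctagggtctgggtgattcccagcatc
A GAS match was found for Tnip1 and Tnip2, and in 8.3% of all windows, or at least 1 window of 9.6% of genes. These matches are descriptions of sequence and do not show binding, and whether they bear on the direction of change was not tested.

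Traf1 differed most. It encodes a TRAF without the RING domain that gives other TRAFs their ligase function, and it pairs with TRAF2 at TNF family receptors. The gene (ENSMUSG00000026875) lies on the minus strand of chr2:34941750-34961772 of GRCm38. Its level was 819 and 873 CPM in the M1 libraries and 8.49 and 7.38 in the M2 libraries. M1 was high and M2 low without any approach between the groups. The difference was -6.75 ± 0.096 log2 units (SE), a 107-fold higher level in M1 (edgeR adjusted p = 2.71e-17). Of all tested genes, 197 (1.34%) had a larger fall. In M1 Traf1 stood at the 96.1th percentile of tested genes by level per length, and in M2 at the 28.8th.

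Traf2 and Traf3 fell by less. TRAF2 brings the ligases cIAP1 and cIAP2 to TNF receptors, and TRAF3 holds the kinase NIK in check together with TRAF2 and also acts below TRIF and MAVS in the interferon response. Traf2 (chr2:25517982-25546940, minus strand) was at 90.6 and 86.6 CPM in M1 and 19.0 and 17.7 in M2. All M1 values lay above all M2 values, by 4.84-fold (log2 difference -2.27 ± 0.069 SE; edgeR adjusted p = 1.30e-13). Traf3 (chr12:111166370-111267153, plus strand) was at 71.4 and 76.3 CPM in M1 and at 34.4 and 33.4 in M2. That is a 2.18-fold higher level in M1 (log2 difference -1.12 ± 0.065 SE; edgeR adjusted p = 3.68e-10). Under TMM scaling its test against a log2 change of at least 1 passed narrowly (edgeR adjusted p = 0.0327). The log2 difference was -0.94 under upper-quartile scaling and -0.68 with total counts, where that test was not run.

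Traf6, the ligase used by Toll-like, interleukin-1 and RANK receptors, changed least among the 9 called genes. It lies on the plus strand of chr2:101678429-101701669. Its levels were 55.1 and 54.4 CPM in M1 and 31.5 and 32.7 in M2, with close replicates in both groups. The groups did not overlap, and M1 was 1.70-fold higher (log2 difference -0.77 ± 0.065 SE, 95% interval -0.91 to -0.63; edgeR adjusted p = 3.42e-08). The interval excludes a 2-fold difference under TMM scaling.

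Traf5 and Traf4 went the other way. TRAF5 resembles TRAF3 in sequence and acts with TRAF2 at CD40 and related receptors, and TRAF4 is best known from development and epithelia. Traf5 (chr1:191997205-192092559, minus strand) was at 11.0 and 10.2 CPM in M1 and 33.4 and 35.1 in M2. The M2 level was 3.23-fold higher (log2 difference 1.69 ± 0.085 SE; edgeR adjusted p = 5.61e-11), with no overlap between groups. Traf4 (chr11:78158499-78165589, minus strand) was the scarcest of the 10, with 26 and 23 counts in M1 and 107 and 149 in M2. These make 0.892 and 0.935 CPM in M1 against 3.42 and 3.23 in M2, a 3.62-fold rise (log2 difference 1.86 ± 0.215 SE; edgeR adjusted p = 1.27e-06) whose error is the widest of the 10 genes. Both genes moved in the same direction as the fibroblast markers given above, whose part in the result was not tested. The library kit did not mark strand. An antisense gene, Gm26879, overlaps 4.49% of the exonic length of Traf5, and Mir3473c on the same strand 1.42%. Gm26879 had 3, 4, 12 and 9 counts in the 4 libraries, against 320, 251, 1047 and 1617 for Traf5. How reads in shared bases were counted is not stated, and the effect of these overlaps on Traf5 was not tested.

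Tank stood between the TRAFs in size of change. The gene (chr2:61578585-61654171, plus strand) was at 239 and 222 CPM in M1 and 45.8 and 45.3 in M2. The M2 libraries were nearly equal and far below both M1 libraries, a 5.06-fold difference (log2 difference -2.34 ± 0.066 SE; edgeR adjusted p = 4.96e-14).

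The 3 TNIP genes did not move alike. TNIP1, the most studied partner of A20, fell most: Tnip1 (chr11:54910785-54962917, minus strand) was at 410 and 421 CPM in M1 and 53.2 and 57.0 in M2. This 7.53-fold difference (log2 difference -2.91 ± 0.069 SE; edgeR adjusted p = 6.68e-15) came with no overlap between groups. Tnip3, which encodes an A20-binding relative of TNIP1, lies on the plus strand of chr6:65525313-65634040. It was at 530 and 476.5 CPM in M1 and 93.3 and 89.3 in M2, 5.52-fold higher in M1 (log2 difference -2.46 ± 0.073 SE; edgeR adjusted p = 8.95e-14). Among the 10 genes Tnip3 thus had the highest CPM in M2, although its exons are also the longest.

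Tnip2 was level between the groups. TNIP2 is known to stabilise the kinase TPL2, the product of Map3k8. The gene (chr5:34496087-34513991, minus strand) was at 43.4 and 42.5 CPM in M1 and 42.3 and 43.2 in M2. The groups overlapped, and the difference was -0.01 ± 0.065 log2 units (SE), with a 95% interval of -0.15 to 0.13 (edgeR adjusted p = 0.924). That interval leaves room for a small change either way, and the scaling of the libraries matters for it. Under upper-quartile scaling Tnip2 rose by 0.18 log2 units in M2 (edgeR adjusted p = 0.0206), and with libraries scaled to their total counts it rose by 0.44 (edgeR adjusted p = 1.72e-05). Over the alternative fits of all 4 libraries that tested for any difference, the adjusted p ran from 1.72e-05 (edgeR, total counts) to 0.923 (limma-voom). Map3k8, named after its values were seen, had a mean of 77.1 CPM in M1 against 24.1 in M2 and was 3.20-fold lower there (log2 difference -1.68 ± 0.075 SE; edgeR adjusted p = 1.49e-11).

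**Figure D2:**
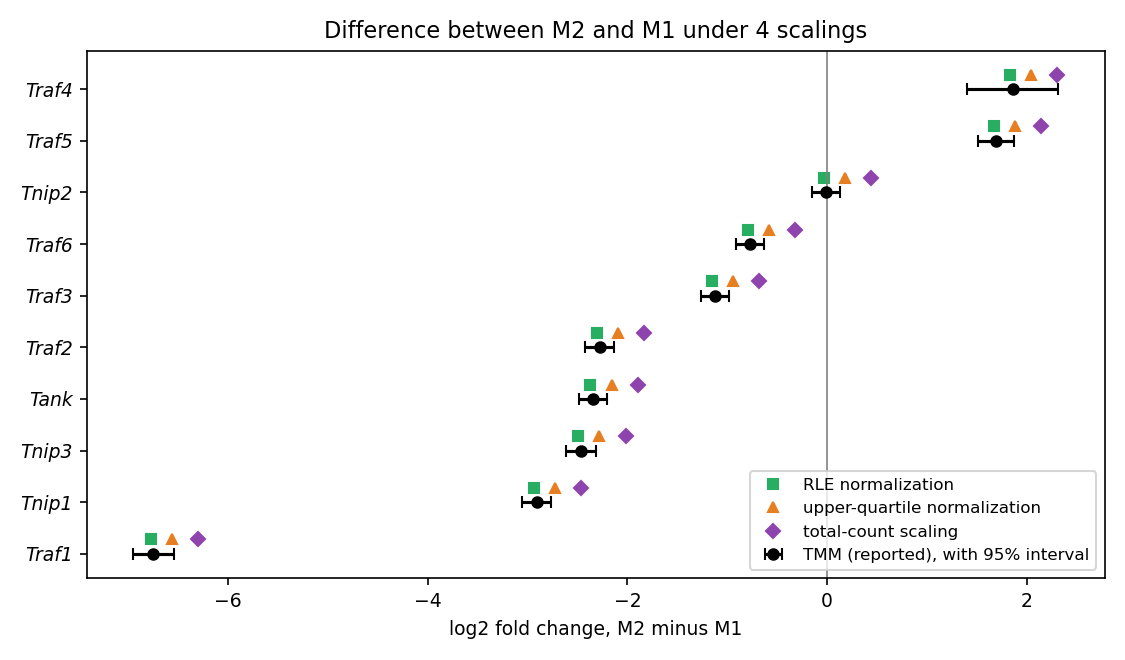
Log2 fold change, M2 minus M1, of each gene; black points with bars are the TMM values with 95% intervals, and coloured points the same fit under 3 other scalings. Total-count scaling moves every point to the right, so that Tnip2 goes from -0.01 to 0.44, while the other 9 genes keep their direction.

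Scaling shifts all genes by one amount, so ratios between members within a library do not depend on it. The count of Tnip1 per count of Tnip2 was 9.45 and 9.90 in the M1 libraries and 1.26 and 1.32 in the M2 libraries, a 7.5-fold difference. For Traf1 per Traf2 the ratios were 9.04 and 10.1 in M1 and 0.446 and 0.417 in M2, a 22.1-fold difference between these partner genes. Traf5 per Traf2 ran the opposite way, from 0.121 and 0.118 in M1 to 1.76 and 1.98 in M2. No ratio overlapped between groups in these 3 pairs. The other member pairs computed did not overlap either, and the share over all gene pairs was not computed. With 2 libraries a group an exact test of a single ratio cannot pass, and none was run.

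Levels can be compared between genes only per length, here as RPKM, the CPM divided by the kilobases of a gene's merged exons. In M1 the order was Tnip1 (117 ± 2.23 RPKM, SD, n = 2), Traf1 (95.9 ± 4.29), Tnip3 (46.1 ± 3.47), Tank (37.8 ± 1.89), Traf2 (17.4 ± 0.567), Tnip2 (16.0 ± 0.231), Traf3 (10.1 ± 0.473), Traf6 (6.95 ± 0.0663), Traf5 (2.32 ± 0.120) and Traf4 (0.278 ± 0.00927). No neighbours in that order overlapped between libraries. In M2 the order was Tnip2 (15.9 ± 0.240 RPKM, SD, n = 2), Tnip1 (15.6 ± 0.768), Tnip3 (8.36 ± 0.254), Traf5 (7.504 ± 0.260), Tank (7.47 ± 0.0551), Traf3 (4.61 ± 0.0937), Traf6 (4.07 ± 0.103), Traf2 (3.60 ± 0.182), Traf4 (1.01 ± 0.0390) and Traf1 (0.900 ± 0.0891). Here Tnip2 and Tnip1 overlapped, as did Traf5 and Tank. Traf1 thus went from the second place to the last, and Traf5 from the ninth to the fourth.

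The summed level of the 10 genes was 349.7 and 350.6 RPKM in M1 and 68.6 and 69.5 in M2 with merged exons as the length. With the longest transcript as the length it was 647.3 and 647.8 in M1 and 110.1 and 111.0 in M2. With merged exons Traf1 made up 26.6% and 28.2% of that sum in the M1 libraries and 1.40% and 1.20% in the M2 libraries. Tnip2 took 4.62% and 4.51% in M1 and 23.0% and 23.1% in M2, with a level that hardly differed. Traf5 went from 0.688% and 0.638% to 10.7% and 11.1%. With merged exons Tank kept close to 11% throughout (11.2% and 10.4% in M1, 11.0% and 10.7% in M2). With the longest transcript its share was 13.7% and 12.7% in M1 and higher in M2, at 15.4% and 15.1%. The order depends on the length used: with the longest transcript as the length, which for Traf1 is 3436 bases in place of 8819, Traf1 ranked first in M1 and Traf4 last in both groups.

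**Figure D3:**
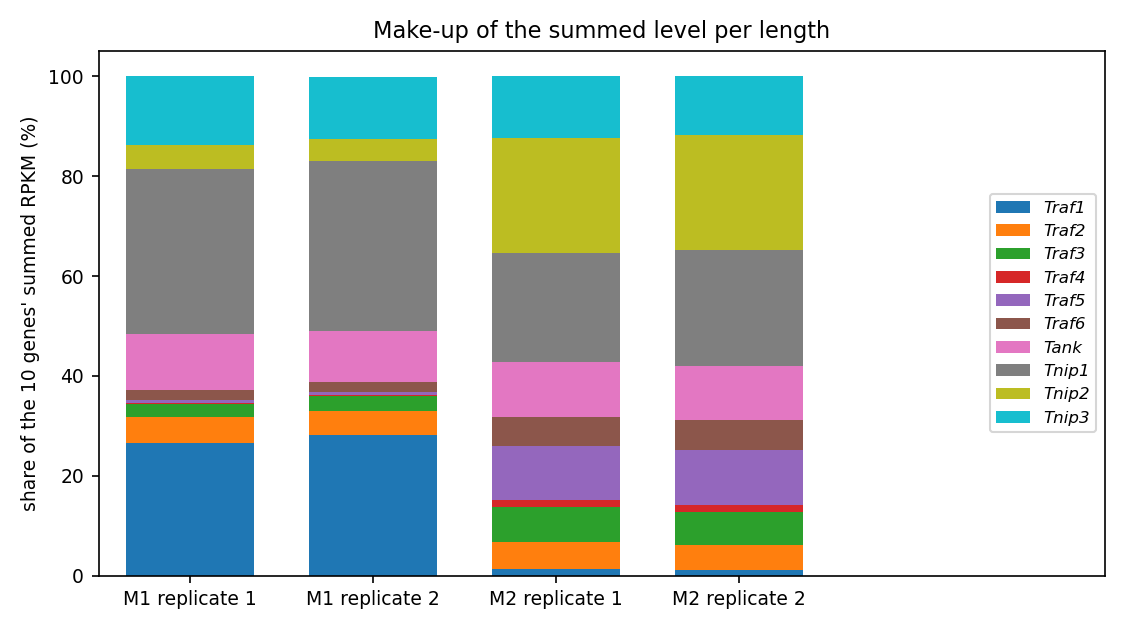
Share of the 10 genes' summed RPKM taken by each gene in each library, in percent, with merged exons as the length. Traf1 narrows from 26.6% and 28.2% in M1 to 1.40% and 1.20% in M2, while Tnip2 and Traf5 widen.

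The wider pathway was described with 6 lists holding 84 genes, of which 78 were tested. In the same fit 61 of these were lower in M2, 12 were higher and 5 were not called, with a median of -1.16 log2 units, against 37.5% lower and 39.7% higher among all tested genes. The lists were chosen with earlier results of these data known, and no test of a list was made.

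Of 14 tested TNF receptor family members that recruit TRAFs, 9 fell in M2 and 4 rose (median -1.06 log2 units). Cd40, which signals through most TRAFs, stood at a mean of 1878 CPM in M1 against 11.1 in M2, or 169-fold apart (log2 difference -7.40 ± 0.115 SE; edgeR adjusted p = 3.06e-16). Tnfrsf9, the receptor 4-1BB that binds TRAF1 and TRAF2, was 67.9-fold higher in M1. That fold rests on 130 and 119 counts in M1 and only 2 and 3 in M2, so its size is uncertain. Tnfrsf13b, the receptor TACI, rose 3.04-fold in M2. Eda2r rose 4.99-fold, from 22 and 25 counts in M1 to 146 and 192 in M2. Tnfrsf11a, the receptor RANK, was not called, at 58.1 CPM in M1 and 61.5 in M2 (named after its values were seen).

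Upstream adaptors and kinases mostly followed the same direction: of 14 tested, 11 fell and 3 rose in M2 (median -1.0). Irak3, an inhibitory kinase relative, fell 13.2-fold and Irak2 9.94-fold, whereas Mavs rose 1.61-fold and Irak1 1.33-fold. Of 15 downstream kinases and kinase adaptors 12 fell and 2 rose (median -0.94). Ikbke, which encodes IKK epsilon, fell 8.75-fold, and Azi2, whose product binds TBK1 as TANK does, fell 3.29-fold, while Map3k1 rose 2.04-fold and Tab1 1.56-fold.

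Among 19 genes of the ubiquitin system that acts with TRAFs and TNIPs, 15 fell and 2 rose in M2 (median -0.96). Tnfaip3, which encodes A20, fell 16.2-fold, from 656.9 to 40.6 CPM between M1 and M2, larger than that of any TNIP gene. Birc3, which encodes cIAP2, fell 9.94-fold. Otulin, a deubiquitinase for linear chains, rose 1.47-fold and Optn, a ubiquitin-binding adaptor, 1.22-fold, the latter a call that DESeq2 did not make (adjusted p = 0.0696). All 11 NF-kappaB subunit and IkB genes fell (median -3.31), led by Nfkbiz (56.4-fold) and Nfkbia (30.2-fold), under TMM and the 3 other scalings alike. Of 5 other TRAF-named genes 3 fell and 1 rose (median -0.34): Traf3ip3 fell 6.33-fold and Trafd1, an interferon-inducible zinc finger protein, 5.74-fold. Traip rose 1.5-fold, at 0.965 CPM in M1 and 1.45 in M2 (edgeR adjusted p = 0.0473). That call was lost under RLE scaling, without a filter, in limma-voom and in DESeq2 (DESeq2 adjusted p = 0.257).

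**Figure D4:**
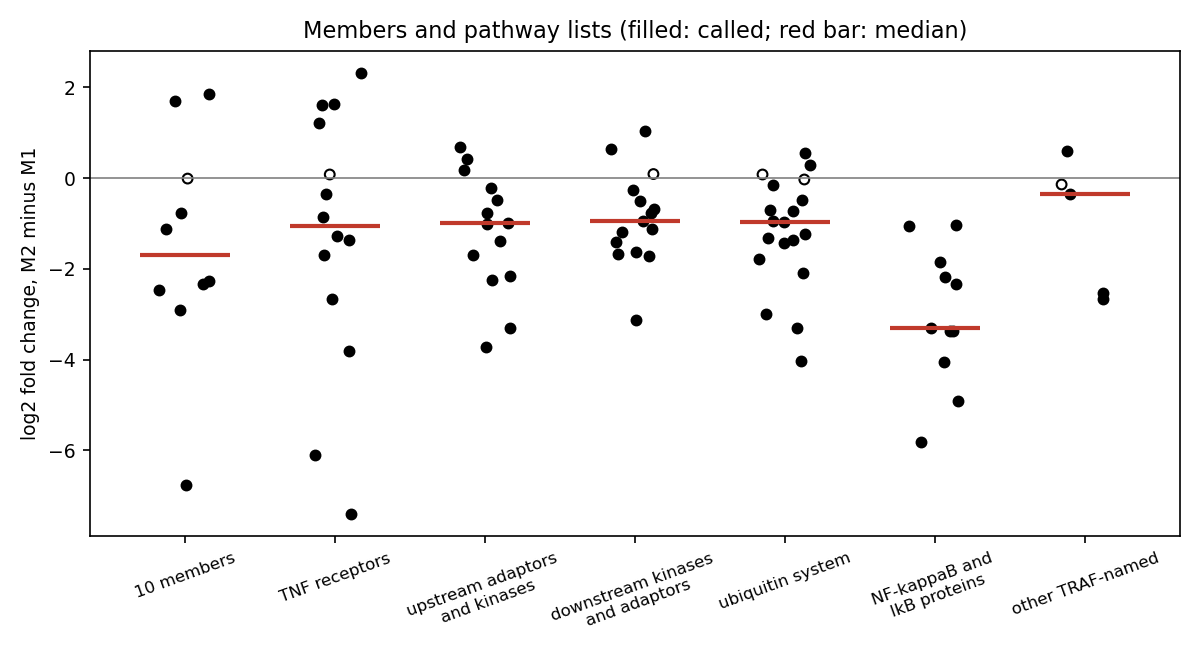
Log2 fold change, M2 minus M1, of the 10 genes and of each tested gene in the 6 pathway lists; filled points were called, open points were not, and red bars are medians. The 11 NF-kappaB and IkB genes all lie below 0, with a median of -3.31.

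The authors' deposited table of 5225 genes gives M1 over M2, and some of its printed symbols do not belong to the values beside them. Its rows were therefore found here by their base mean, which was recomputed from the counts and matched within a relative 1e-06. Of the 10 genes 8 had a row, 5 of them under their own symbol. The values of Traf3 (1.12 on the log2 scale) stand in the authors' deposited table under 4930595D18Rik, a gene that lies within Traf3 on the other strand, and those of Tnip1 (2.91) under Gpx3 and of Traf4 (-1.87) under Gm12571. The row printed as Traf3 in the authors' deposited table has a log2 value of 3.89 and the base mean of Amn, not of Traf3. Traf6 and Tnip2 had no row, in a table whose smallest absolute log2 value is 1.00. For the 5 found under their own symbol the authors' deposited table gives log2 values of 6.74 (Traf1), 2.27 (Traf2), -1.70 (Traf5), 2.33 (Tank) and 2.46 (Tnip3).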

How the data were processed

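Poly(A) RNA was sequenced as paired reads from a kit that does not mark strand, per the labels' protocols. Reads were handled on GRCm38 with Trimmomatic 0.36, STAR 2.5.2b, Subread 1.5.2 and its featureCounts, and DESeq and DESeq2 are named too, per the submitters' processing notes. How each was run is not stated there. The authors deposited whole-number counts per gene, not normalized. The authors also deposited a comparison table with a base mean (a signal, the mean of scaled counts), log2 fold change and its error, a test statistic (a score), p-value and adjusted p-value.

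Symbols, positions and lengths came from GENCODE vM21 (GRCm38), which matched 49056 of 49315 identifiers; promoter sequences came from RefSeq. M2 was compared with M1 over all tested genes with edgeR 4.0.16 in R 4.3.3: genes were kept by filterByExpr with a minimum count of 10 and a minimum total of 15, libraries were scaled by TMM, and a two-sided quasi-likelihood F test with robust spread was adjusted over 14656 genes by Benjamini-Hochberg. Standard errors come from the log2 fold change and the F statistic (its size over the root of F), and intervals use the fit's 14.4 degrees of freedom. Replicates differed by more than counting noise (chi-square per degree of freedom 14.7 in M1, 2.41 in M2) and each counted as 1 sample. Replicate numbers follow accession order and pair nothing. The fit was also run on simulated data in which only few genes differed, which does not check the scaling used here. Alternatives used RLE, upper-quartile and total-count scaling, other filters, DESeq2 1.42.0, limma-voom (limma 3.58.1), a non-robust spread, a test beyond log2 1, each library left out, and another gene length. The genes and lists were chosen with earlier results of these data known. Named list genes are up to 2 called genes each way with the largest change and at least 1 CPM in the higher group.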

Additional observations from a re-analysis of the deposited data

How the results depend on the processing

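The 7 falls and 2 rises among the 10 genes kept their direction in each of the 13 alternative fits that tested the gene, and only Tnip2 reversed (0.18 with upper-quartile scaling, 0.44 with total counts, so that 3 genes were higher). Traf4 was not tested with a filter of 5 CPM in 2 libraries, which left 1 gene higher, and Traf6 did not pass the test beyond log2 1 (-0.77, adjusted p = 1.00). Leaving out 1 library leaves a group with a single library, assumed to vary like the other group, so these fits bear on the size of a difference and their calls (2 higher and 7 lower in each) say nothing about stability. The log2 difference then ran from -6.82 to -6.62 for Traf1 and from -0.78 to -0.73 for Traf6. Total-count scaling moved the median gene by 0.45 log2 units and upper-quartile scaling by 0.18, and 71.9% and 60.8% of all calls were then higher in M2, against 51.4%. Genes lower in M2 over the whole table numbered 5495, or 3342 under total-count scaling, and the test beyond log2 1 left 2163 lower and 2677 of 5817 higher.

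In the lists, the test beyond log2 1 left 0 higher and 6 lower both for upstream and for downstream genes, 0 higher and 9 lower for the ubiquitin system, and 0 higher among other TRAF-named genes. Total-count scaling gave 4 higher downstream genes, 5 higher in the ubiquitin system and 2 higher among other TRAF-named genes; upper-quartile scaling gave 4 in the ubiquitin system and DESeq2 gave 1. TNF receptors higher in M2 went from 4 to 2 with the 5 CPM filter. The count of 1 higher TRAF-named gene, Traip, became 0 under RLE, without a filter, in DESeq2 and in limma-voom. It was also 0 with the 5 CPM filter, under which Traip was not tested. With the longest transcript as length the share of Traf1 was 38.0% in M1 and 2.09% in M2 (27.4% and 1.30% as reported), that of Tnip1 21.6% and 16.8% (33.5% and 22.6%), and that of Tnip2 3.28% and 19.1% (4.57% and 23.1%). No paired analysis was possible because the labels give no replicate numbers. With 2 libraries a group, the spread of a gene rests on the fit across genes.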
